A study of Mus musculus with 9 samples.

Results

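Coagulation turns fibrinogen into fibrin through a chain of proteases, and fibrinolysis dissolves fibrin through plasmin. Monocytes take part in both. They can display tissue factor, which starts the chain with factor VII, they make factor X and the A subunit of factor XIII, and they carry the thrombin cofactor thrombomodulin. On their surface the urokinase receptor gathers urokinase, which turns plasminogen into plasmin, and the inhibitor encoded by Serpinb2 blocks urokinase.

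The 9 genes described here are Thbd, F3, F7, F10, F13a1, Serpinb2, Plau, Plaur and Tfpi. They were taken by symbol, as coagulation and fibrinolysis genes of monocytes, from the 55367 gene symbols that each library was counted for. All 9 were present in the files, and 8 had enough reads to be tested, among 13707 tested genes in all. F3 was the exception. Monocytes of adult mice were kept for 4 h with platelets of postnatal day 7 (P7) mice, with platelets of adult mice, or with a buffer as control, and were washed before messenger RNA was sequenced. Each group holds 3 libraries. Mouse strain and sex, the way monocytes and platelets were isolated and the number of platelets per monocyte are not given in the labels. Whether the 3 libraries of a group came from different cultures or animals is not given either, so the p-values speak for the spread among these libraries, which may be technical.

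Total counts ran from 29687341 to 35333463 with P7 platelets, from 30974956 to 34394579 with adult platelets and from 35314701 to 37065564 in control. All 9 listed monocyte markers, among them Csf1r, Ccr2 and Lyz2, had reads in every library and together made up 2.45 to 2.95% of counts with P7 platelets, 2.70 to 3.11% with adult platelets and 2.51 to 2.76% in control. The libraries of platelet-treated monocytes also held platelet RNA. All 15 listed platelet markers had reads in each of them, with a sum of 0.122 to 0.140% of counts with P7 platelets and 0.0650 to 0.112% with adult platelets, against 10 to 11 markers and 0.00246 to 0.00278% in control, where Gp1bb, Gp6 and Mpig6b had no read. Globin and other red cell transcripts made up 4.37 to 5.52% with P7 platelets, 0.0498 to 0.180% with adult platelets and 0.00110 to 0.00140% in control. The immunoglobulin transcript Igkc was high in P7 platelet replicate 1, adult platelet replicates 1 and 3 and control replicate 1, at 410 to 772 CPM (reads scaled to the total of the library), against 123 to 172 in the other libraries. In such bulk libraries fewer cells that express a gene and less RNA per cell cannot be told apart.

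The levels below are CPM after scaling with TMM factors, which correct the totals for differences in composition between libraries. Log2 fold changes are given ± SE, and a gene was called when its p from edgeR's quasi-likelihood test, adjusted over all tested genes, was below 0.05. Serpinb2 rose 11.3-fold with P7 platelets over control, and with adult platelets it did not pass the test. Thbd fell with both kinds of platelets, 4.27-fold with P7 platelets and 2.48-fold with adult platelets, and the fall was larger with P7 platelets. F10 and Plaur rose with both by less than 2-fold. F3, the tissue factor gene, had 3 reads in all 9 libraries together.

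With P7 platelets over control, 5 of the 8 tested members were called higher (F10, F13a1, Serpinb2, Plau and Plaur) and 1 lower (Thbd), where 29.9% of all tested genes were called higher and 29.3% lower. With adult platelets over control, 3 were called higher (F10, Plau and Plaur) and 1 lower (Thbd), against 14.3% and 12% of all tested genes. With P7 over adult platelets, 2 were called higher (F10 and Serpinb2) and 1 lower (Thbd), against 19.7% and 19.8%. The median log2 fold change of the 8 members was 0.43, 0.38 and -0.07 in these comparisons in turn, and that of all tested genes was -0.014, -0.0022 and -0.024. Both comparisons with control use the same 3 control libraries. Upper-quartile scaling moved the median of all genes to -0.12 in the comparison of P7 platelets with control and turned the balance of all calls there to 3279 higher and 5012 lower, against 4097 and 4014. For adult platelets over control it gave 1620 higher and 1945 lower, against 1966 and 1651, and for P7 over adult platelets 2106 higher and 3556 lower, against 2706 and 2718.

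**Figure D1:**
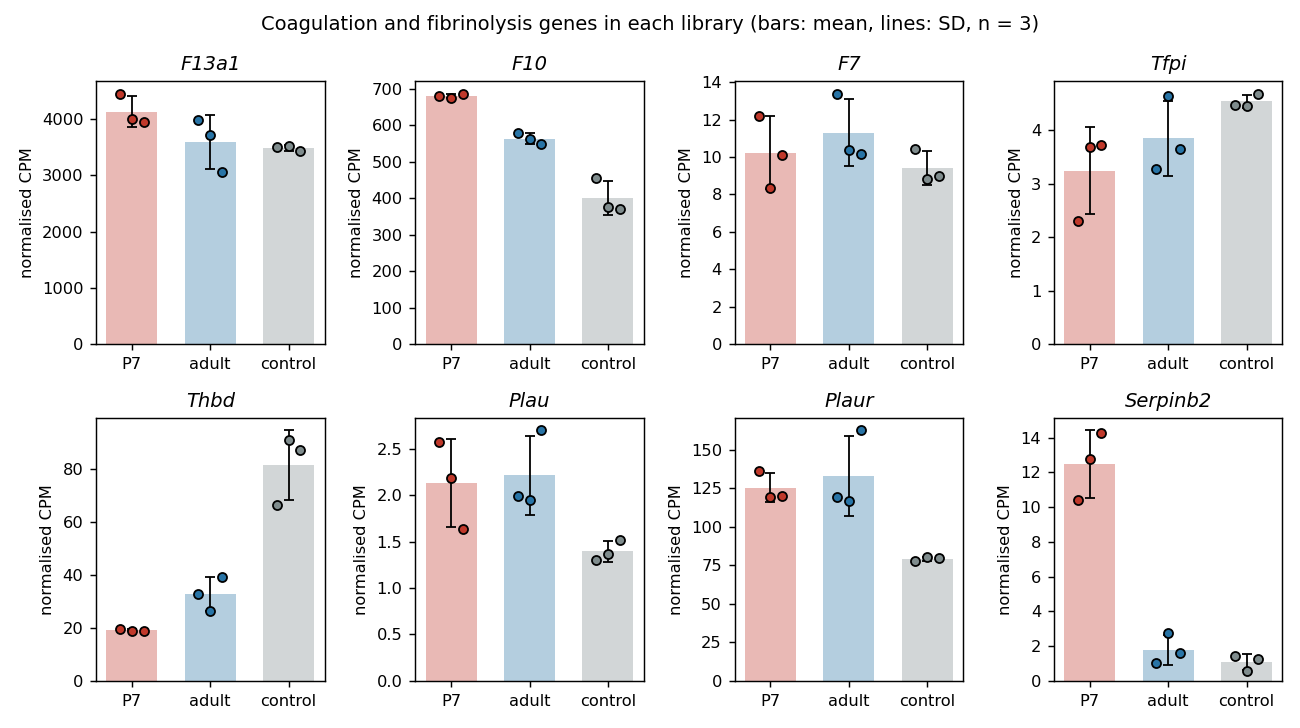
Normalised CPM of the 8 tested members in each library, with P7 platelets, adult platelets and control from left to right in every panel. Points are libraries, bars are group means and lines are the SD (n = 3). Serpinb2 lies at 10.4 to 14.3 CPM with P7 platelets and at or below 2.75 CPM in the other libraries, and Thbd is lower in all 6 platelet libraries than in the control libraries.

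Upstream sequences of the members were taken from RefSeq (GRCm38.p6), where 7 of the 9 members matched in 10 windows of 250 bases before an annotated start. Thbd and Plau had no window there and were not searched. Shown are the windows of Serpinb2, which had the largest rise among the members, of Plaur and F10, which rose with both kinds of platelets, and of F3, which had almost no reads. Capitals mark matches, on either strand, to the letters of 7 motifs. These were AP-1 (TGANTCA), NF-kB (GGANTTTCC), CRE (TGACGTCA), the SP1 GC box (GGGCGG), the KLF box (CACCC), EGR1 (GCGTGGGCG) and the TATA box (TATAAA).
Serpinb2, chr1:107511173-107511422, plus strand: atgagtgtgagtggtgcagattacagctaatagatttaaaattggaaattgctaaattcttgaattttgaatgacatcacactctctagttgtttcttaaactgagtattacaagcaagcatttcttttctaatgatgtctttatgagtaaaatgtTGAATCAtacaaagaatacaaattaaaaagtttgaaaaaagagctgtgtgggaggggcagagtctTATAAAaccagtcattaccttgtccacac
Plaur, chr7:24462233-24462482, plus strand: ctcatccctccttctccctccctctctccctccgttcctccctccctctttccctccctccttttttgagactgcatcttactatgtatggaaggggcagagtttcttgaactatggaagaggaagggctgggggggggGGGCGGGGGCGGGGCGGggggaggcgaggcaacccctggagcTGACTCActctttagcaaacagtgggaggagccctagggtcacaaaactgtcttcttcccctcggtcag
F10, chr8:13037058-13037307, plus strand: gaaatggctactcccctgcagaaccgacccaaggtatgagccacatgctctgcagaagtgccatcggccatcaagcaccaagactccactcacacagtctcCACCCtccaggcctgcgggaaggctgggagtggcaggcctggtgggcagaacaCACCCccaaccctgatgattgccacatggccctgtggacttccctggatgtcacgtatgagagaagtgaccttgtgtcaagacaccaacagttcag
F3, chr3:121723287-121723536, plus strand: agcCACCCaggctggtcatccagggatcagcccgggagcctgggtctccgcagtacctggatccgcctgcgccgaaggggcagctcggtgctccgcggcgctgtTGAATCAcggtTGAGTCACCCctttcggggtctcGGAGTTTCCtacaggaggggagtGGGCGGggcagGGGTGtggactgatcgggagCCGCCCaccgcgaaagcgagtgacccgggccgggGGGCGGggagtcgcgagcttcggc

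The Serpinb2 window shown held 1 AP-1 match at 94 to 88 bases before the start and a TATA box at 29 to 24 bases. A second annotated start of Serpinb2 lies downstream, and the same letters fall at 181 to 175 and 116 to 111 bases before it. The Plaur window held 1 AP-1 match at 69 to 63 bases and 3 GC boxes that run into each other. F10 had 2 KLF boxes and no other match. The F3 window held 2 AP-1 matches, at 146 to 140 and 135 to 129 bases, and 1 NF-kB match at 112 to 104 bases, with a KLF box overlapping the second AP-1 match. Of the other windows, 1 of the 2 of F13a1 held an NF-kB match, and those of F7 and Tfpi held neither an AP-1 nor an NF-kB match. Among 32851 windows of the same length in the table, 6.75% held the AP-1 letters, 1.07% the NF-kB letters, 1.55% the CRE, 32.7% the GC box, 52.0% the KLF box, 0.536% the EGR1 letters and 12.4% the TATA box. No member window held the CRE or EGR1 letters. A match describes these letters and was not tested for binding.

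F3 encodes tissue factor, the membrane protein that starts coagulation. It had 1, 0 and 0 reads with P7 platelets, 0, 1 and 0 reads with adult platelets and 0, 1 and 0 reads in control. Each group therefore had 1 read, and no group was higher or lower than another. Over the 304304525 reads of the 9 libraries the 3 reads correspond to 0.0099 CPM (exact 95% Poisson interval 0.0020 to 0.029, counting error only). A difference between groups was not detectable at this level. The comparison of F3 with other members is a matter of level, since Plaur, for example, had 3067 to 5484 reads in every library.

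F7 encodes factor VII, the protease that tissue factor binds. It stood at 12.2, 8.33 and 10.1 CPM with P7 platelets, 13.4, 10.4 and 10.2 CPM with adult platelets and 10.4, 8.82 and 8.97 CPM in control. The groups overlapped. Neither comparison with control passed the test, with a log2 fold change of 0.12 ± 0.15 (95% interval -0.23 to 0.47, adjusted p = 0.527) for P7 platelets and 0.26 ± 0.15 (-0.08 to 0.61, adjusted p = 0.236) for adult platelets.

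F10 lies beside F7 on chromosome 8, at 13037308 to 13056676 in GENCODE M21 (GRCm38), with F7 at 13026034 to 13035809. It encodes factor X, whose active form makes thrombin. F10 stood at 681, 674 and 686 CPM with P7 platelets, 578, 561 and 549 CPM with adult platelets and 455, 375 and 370.5 CPM in control. None of the 3 groups overlapped another, and the P7 platelet libraries were the highest. The log2 fold change was 0.77 ± 0.077 for P7 platelets over control (adjusted p = 3.31e-05) and 0.49 ± 0.077 for adult platelets over control (adjusted p = 0.00209). P7 platelet libraries were 1.21-fold above adult platelet libraries (0.27 ± 0.077, adjusted p = 0.0193). That last call was lost without P7 platelet replicate 2 or 3 or adult platelet replicate 3 (adjusted p = 0.0523 to 0.0606) and with upper-quartile scaling (adjusted p = 0.0703).

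F13a1 encodes the A subunit of factor XIII, the transglutaminase that crosslinks fibrin. It was the most abundant member, at 4449, 3993 and 3950 CPM with P7 platelets, 3983, 3716 and 3052 CPM with adult platelets and 3504, 3526 and 3430 CPM in control. The P7 platelet libraries lay above control, and the adult platelet libraries ranged from below to above it. With P7 platelets over control the log2 fold change was 0.24 ± 0.093 (adjusted p = 0.0464). The call was lost in each of the 6 fits that left out a P7 platelet or control library (adjusted p = 0.0604 to 0.141), with upper-quartile scaling (0.207), without a filter on low counts (0.0903) and in limma-voom (0.0524). With adult platelets over control it was 0.040 ± 0.093 (95% interval -0.17 to 0.25, adjusted p = 0.788). Platelets carry factor XIII A too. The control libraries had 134333 to 140118 reads of F13a1 with the platelet markers at their sum of 0.00246 to 0.00278% of counts, and the part of platelet RNA in the difference was not tested. On the annotation F13a1 has the antisense genes Gm49144 and Gm30489, which had at most 1 read in any library.

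Tfpi encodes tissue factor pathway inhibitor, which blocks the complex of tissue factor and factor VII and the active factor X. It stood at 2.31, 3.70 and 3.73 CPM with P7 platelets, 3.27, 4.63 and 3.65 CPM with adult platelets and 4.48, 4.46 and 4.69 CPM in control, from 69 to 185 reads a library. All 3 P7 platelet libraries were below control, while the adult platelet libraries overlapped it. The P7 platelet difference did not pass the test (-0.49 ± 0.20, 95% interval -0.93 to -0.04, adjusted p = 0.0584). With the replicate number as a block it did (-0.51, adjusted p = 0.0260), though the labels state no pairing. The P7 platelet difference also passed in 4 of the 9 other alternatives that left out no replicate. Among these 4 was upper-quartile scaling, which moved the median of all genes to -0.12. It did not pass in any of the 9 fits that left out 1 library (-0.60 to -0.29, adjusted p = 0.0529 to 0.151). With adult platelets the difference from control was -0.24 ± 0.19 (-0.68 to 0.20, adjusted p = 0.405).

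Thbd encodes thrombomodulin, which turns thrombin from a clotting enzyme into an activator of the anticoagulant protein C. It lies on chromosome 2 at 148404466 to 148408188. Thbd stood at 19.5, 18.7 and 19.0 CPM with P7 platelets, 32.9, 26.5 and 39.1 CPM with adult platelets and 66.4, 90.8 and 87.2 CPM in control. No groups overlapped, and the P7 platelet libraries lay within 1 CPM of each other. The log2 fold change was -2.09 ± 0.15 for P7 platelets over control (adjusted p = 5.72e-06), -1.31 ± 0.15 for adult platelets over control (adjusted p = 0.000365) and -0.78 ± 0.15 for P7 over adult platelets (adjusted p = 0.00337). All 3 calls were kept in the 19 alternatives tried, with log2 fold changes of -2.22 to -2.01, -1.46 to -1.17 and -0.91 to -0.64. Endothelial cells also express Thbd and Tfpi. Of 10 endothelial markers 6 to 8 had reads in a library, with a sum of 0.00422 to 0.00493% of counts with P7 platelets, 0.00409 to 0.00604% with adult platelets and 0.00322 to 0.00374% in control. Most of that sum was Pecam1, which monocytes and platelets share. Cldn5 had no read in any library, and Emcn, Robo4 and Tek had at most 3 reads in a group. The other markers did not all go the same way. Kdr averaged 3.52 CPM with P7 platelets, 0.603 CPM with adult platelets and 0.196 CPM in control, and Esam, which platelets also express, averaged 7.61, 5.36 and 0.0682 CPM in the same order. Cdh5 averaged 0.726, 0.535 and 0.288 CPM and Tie1 0.864, 0.418 and 0.347 CPM in that order. Egfl7 averaged 0.146, 0.267 and 0.153 CPM and was thus not higher with P7 platelets than in control. The part of such RNA in the differences of Thbd and Tfpi was not tested.

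Plau encodes urokinase, the protease that turns plasminogen into plasmin. It was low, at 2.58, 2.19 and 1.64 CPM with P7 platelets, 1.99, 1.95 and 2.70 CPM with adult platelets and 1.30, 1.36 and 1.52 CPM in control, from 51 to 91 reads a library. Each platelet library lay above each control library. The log2 fold change was 0.61 ± 0.21 with P7 platelets (adjusted p = 0.0329) and 0.66 ± 0.21 with adult platelets (adjusted p = 0.0460). These calls were close to the threshold. The P7 platelet call was lost without P7 platelet replicate 1 or 2 or any control replicate (adjusted p = 0.0518 to 0.120), and the adult platelet call without P7 platelet replicate 2, adult platelet replicate 1 or 3 or any control replicate (adjusted p = 0.0617 to 0.133). Upper-quartile scaling (0.0675 and 0.0571) and the unfiltered fit (0.0652 and 0.0743) also ended both, and the term for the libraries high in Igkc (0.0607) ended the adult platelet call.

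Plaur encodes the urokinase receptor. It stood at 136, 119.6 and 120.2 CPM with P7 platelets, 119, 117 and 163 CPM with adult platelets and 77.9, 80.5 and 79.5 CPM in control. Both platelet groups lay above control and overlapped each other, with adult platelet replicate 3 the highest library. The log2 fold change over control was 0.66 ± 0.12 with P7 platelets (adjusted p = 0.00104) and 0.74 ± 0.12 with adult platelets (adjusted p = 0.00219). P7 and adult platelets did not differ by the test, at -0.084 ± 0.12 (95% interval -0.35 to 0.18, adjusted p = 0.608). Receptor reads per urokinase read were 52.9, 54.7 and 73.4 with P7 platelets, 59.8, 60.1 and 60.3 with adult platelets and 59.9, 59.0 and 52.3 in control, overlapping between P7 platelets and both other groups.

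Serpinb2, whose window with an AP-1 match and a TATA box is shown above, encodes plasminogen activator inhibitor type 2, which inhibits urokinase and is mostly kept inside the cell. It stood at 10.4, 12.8 and 14.3 CPM with P7 platelets, 1.06, 2.75 and 1.60 CPM with adult platelets and 1.45, 0.577 and 1.27 CPM in control. The P7 platelet libraries stood apart from all others, and the adult platelet libraries overlapped control. The log2 fold change was 3.50 ± 0.37 for P7 platelets over control (adjusted p = 4.47e-05) and 2.78 ± 0.36 for P7 over adult platelets (adjusted p = 0.000455). With adult platelets over control it was 0.71 ± 0.39 (95% interval -0.15 to 1.58, adjusted p = 0.204). Both P7 calls were kept in all 19 alternatives, at 3.20 to 3.75 and 2.52 to 3.23.

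The annotation places Serpinb2 on chromosome 1 at 107511423 to 107535478, and it shares 291 exon bases with its neighbour Serpinb10 on the same strand, where reads cannot be assigned with certainty. Serpinb10 itself had 41.8 CPM with P7 platelets, 38.8 CPM with adult platelets and 42.9 CPM in control on average, and its log2 fold change of -0.037 ± 0.14 with P7 platelets did not pass the test (adjusted p = 0.838). The number of urokinase reads per Serpinb2 read was 0.248, 0.171 and 0.115 with P7 platelets, 1.88, 0.708 and 1.69 with adult platelets and 0.897, 2.36 and 1.2 in control. The P7 platelet ratios lay below those of all other libraries, of which adult platelet replicate 2 had the lowest at 0.708. On the log2 scale the mean ratio was 3.01 lower with P7 platelets than in control, a difference of -3.01. A two-sided exact permutation test gave p = 0.1, and 3 libraries on each side cannot give less. Adjusted over the 6 ratio tests the permutation p was 0.3.

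**Figure D2:**
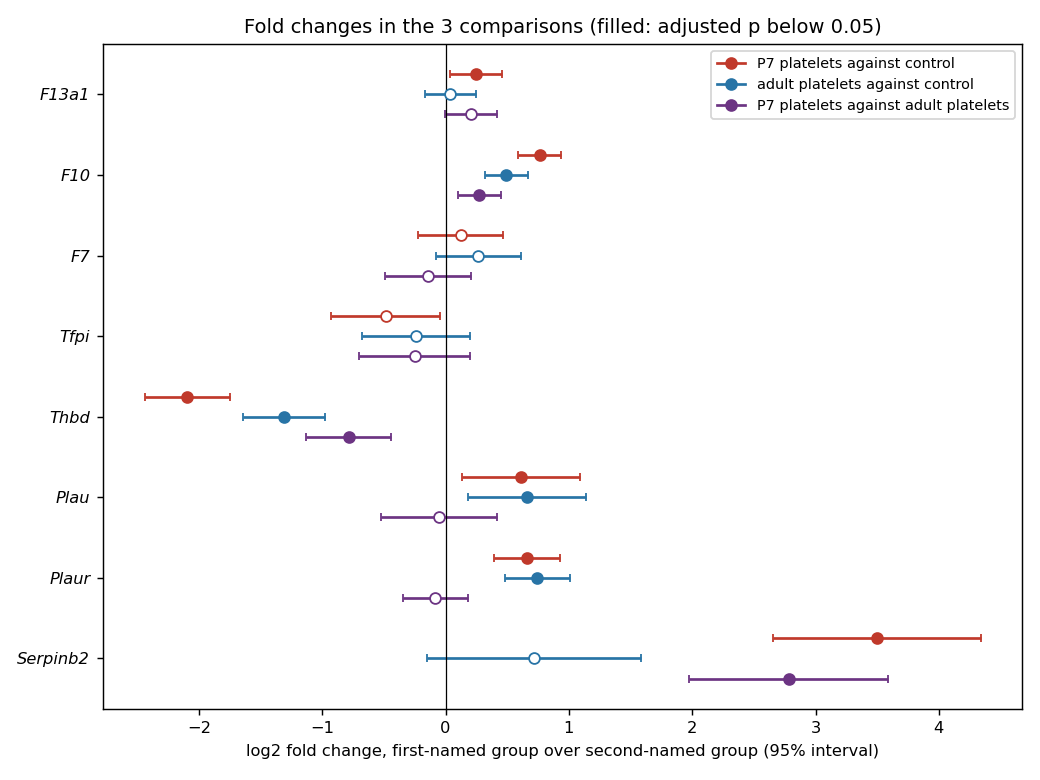
Log2 fold changes of the 8 tested members for P7 platelets over control, adult platelets over control and P7 over adult platelets, with 95% intervals; filled points have an adjusted p below 0.05. The intervals of Thbd lie below 0 in all 3 comparisons, and those of Serpinb2 lie above 0 for both comparisons of P7 platelets.

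Scaled to the length of its exons, F13a1 was the highest member in every group, at 613 CPM per kb with P7 platelets, 532 with adult platelets and 517 in control on average. F10 followed at 249, 206 and 147, and Plaur at 47.9, 50.8 and 30.3 CPM per kb. Below these the order differed between groups. In control Thbd came next at 21.9 CPM per kb (range 17.8 to 24.4), above F7 at 5.06 (4.74 to 5.61), with no overlap. With P7 platelets F7 (5.50), Serpinb2 (5.31) and Thbd (5.12) had overlapping ranges, so that their order was not resolved. With adult platelets Thbd (8.82, range 7.11 to 10.5) overlapped F7 (6.08, range 5.47 to 7.20). Tfpi, Plau and Serpinb2 lay at 0.831, 0.589 and 0.467 CPM per kb in control, where Plau and Serpinb2 overlapped. With adult platelets all of these 3 overlapped, and with P7 platelets Plau (0.901) lay above Tfpi (0.594) without overlap. Lengths are the union of all annotated exons, so the level of a gene whose cells use a short transcript is understated.

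**Figure D3:**
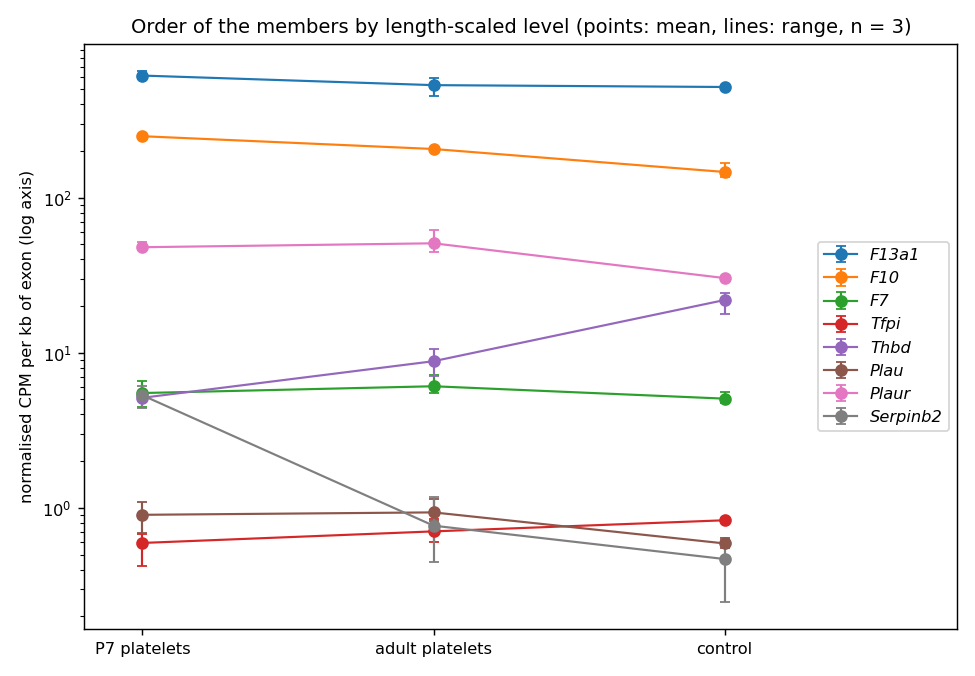
Mean normalised CPM per kb of exon on a log axis for P7 platelets, adult platelets and control; points are means of 3 libraries, vertical lines the range, and the lines between groups join the points of a gene. Thbd is at 5.12 with P7 platelets against 21.9 in control and Serpinb2 at 5.31 against 0.467, and their ranges overlap with P7 platelets.

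For the 4 members with the widest spread of group means, the genes with the most similar pattern were found by the root mean square difference of centred log2 CPM over the 9 libraries, among genes with a mean log2 CPM of at least 2. For Serpinb2 they were Acod1 (0.317), which encodes the enzyme that makes itaconate, the guanylate-binding protein gene Gbp5 (0.330) and the cytokine gene Tnf (0.356). Acod1 averaged 631 CPM with P7 platelets, 73.1 with adult platelets and 39.5 in control, and Tnf 537, 87.2 and 45.8. For Thbd they were Pdk2 (0.152), a pyruvate dehydrogenase kinase gene, the lipin gene Lpin1 (0.209) and Hpgd (0.213), which encodes the enzyme that inactivates prostaglandins. Hpgd averaged 75.4 CPM with P7 platelets, 138 with adult platelets and 401 in control. For F10 they were Psma6 (0.0687), Rnd3 (0.0688) and Snrpd1 (0.0698), and for Plaur they were Slc44a1 (0.0674), Epha2 (0.0888) and Pdlim1 (0.0936). Plaur was in turn among the 3 nearest to Plau (0.135).

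Of 49 further coagulation and fibrinolysis genes that were listed by role, 29 had enough reads to be tested. With P7 platelets over control 16 of the 29 were called higher and 5 lower, with adult platelets 12 higher and 2 lower, and with P7 over adult platelets 10 higher and 4 lower, beside the shares of all genes given above. Their median log2 fold change was 0.26, 0.14 and 0.17 in the same order. Of the 20 genes that were not tested, F2, Fga, Fgb, Fgg, Proc, Serpina5, Serpina10 and Cpb2 had no read in the 9 libraries, and Plg, the gene of the plasmin precursor, had 8.

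Among the factors, Vwf, the gene of the platelet tether von Willebrand factor, stood at 100.3, 101 and 101 CPM with P7 platelets, 49.9, 29.0 and 56.5 with adult platelets and 1.23, 1.36 and 1.37 in control. Its log2 fold change over control was 6.25 ± 0.27 with P7 platelets (adjusted p = 4.71e-07) and 5.09 ± 0.26 with adult platelets (adjusted p = 4.20e-06). F2rl2, the gene of the thrombin receptor PAR3 of mouse platelets, stood at 20.4, 17.6 and 16.9 CPM with P7 platelets, 9.25, 6.35 and 10.1 with adult platelets and 0.10, 0.236 and 0.101 in control, where it had 4 to 9 reads a library. Platelets carry RNA of both genes, and the summed platelet markers given above were higher in the same libraries. Between the kinds of platelets the single markers differed. Ppbp averaged 57.5 CPM with P7 platelets and 224 CPM with adult platelets, and each of the other listed markers averaged higher with P7 platelets. The part of platelet RNA in the differences of Vwf and F2rl2 was not tested. F5, the gene of the cofactor of factor X, went the other way with P7 platelets, at 386, 511 and 523 CPM, against 550, 833 and 859 CPM in control (-0.66 ± 0.19, adjusted p = 0.0147). With adult platelets F5 stood at 434, 577 and 425 CPM and overlapped control (-0.64 ± 0.19, adjusted p = 0.0362). The F5 call with P7 platelets was lost without P7 platelet replicate 1 or control replicate 2 or 3 (adjusted p = 0.0502 to 0.0556). The call with adult platelets was lost without P7 platelet replicate 2, adult platelet replicate 1 or 3 or control replicate 2 or 3 (adjusted p = 0.0533 to 0.124) and with only those groups in the fit (0.0508).

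Procr, the gene of the endothelial protein C receptor, which presents protein C to the complex of thrombin and thrombomodulin, rose while Thbd fell. It stood at 8.63, 11.9 and 13.6 CPM with P7 platelets, 5.85, 6.75 and 4.98 CPM with adult platelets and 2.48, 2.28 and 2.48 CPM in control. No groups overlapped. The log2 fold change was 2.23 ± 0.18 for P7 platelets over control (adjusted p = 9.28e-06), 1.28 ± 0.18 for adult platelets over control (adjusted p = 0.00117) and 0.96 ± 0.17 for P7 over adult platelets (adjusted p = 0.00208). Of the endothelial markers given above, Kdr, Esam, Cdh5 and Tie1 had the same order of groups. Pecam1 and Egfl7 were highest with adult platelets, and Cldn5 had no read. The summed platelet markers were also higher with platelets. The part of RNA of other cells in the differences of Procr was not tested. Anxa5, the gene of the phosphatidylserine-binding annexin A5, was called higher with P7 than with adult platelets (0.17 ± 0.043, adjusted p = 0.0118), and that call was lost with upper-quartile scaling (0.107), without a filter (0.128) and with only those groups in the fit (0.0545).

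Of the genes listed under fibrinolysis, Serpinb6a, the gene of an intracellular protease inhibitor, rose by 2.25 ± 0.18 with P7 platelets and 1.80 ± 0.18 with adult platelets. The summed platelet markers given above were higher in the same libraries, and the part of platelet RNA in the rise of Serpinb6a was not tested. Anxa2, whose product binds plasminogen at the surface together with that of S100a10, rose by 0.60 ± 0.11 with P7 platelets (adjusted p = 0.00125) and 0.71 ± 0.11 with adult platelets (adjusted p = 0.00202). S100a10 was called higher with adult platelets over control (0.55 ± 0.10, adjusted p = 0.00521) and lower with P7 than with adult platelets (-0.35 ± 0.10, adjusted p = 0.0241), and the call between platelets was lost without P7 platelet replicate 2 or 3 or adult platelet replicate 3 (adjusted p = 0.0716 to 0.0842). Lrp1, the gene of a receptor that clears protease and inhibitor complexes, stood at 669, 438 and 439 CPM with P7 platelets, 765, 828 and 902 CPM with adult platelets and 784, 801 and 966 CPM in control. It was called lower with P7 platelets than with adult platelets (-0.69 ± 0.16, adjusted p = 0.00864).

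Among the supporting genes, Tgm2, which encodes tissue transglutaminase, rose by 2.04 ± 0.19 with P7 platelets (adjusted p = 2.45e-05) and 1.22 ± 0.19 with adult platelets (adjusted p = 0.00210). Mcfd2, whose product helps factors V and VIII leave the endoplasmic reticulum, rose by 0.65 ± 0.064 and 0.77 ± 0.064 in the same order. Xkr8, the gene of a scramblase that exposes phosphatidylserine, stood at 11.1, 15.4 and 16.3 CPM with P7 platelets, 3.92, 5.84 and 3.83 CPM with adult platelets and 4.45, 3.91 and 4.23 CPM in control. It rose with P7 over adult platelets (1.65 ± 0.19, adjusted p = 0.000269), and with adult platelets over control it did not pass the test (0.11 ± 0.19, 95% interval -0.33 to 0.55, adjusted p = 0.713). Ano6, the gene of the calcium-dependent scramblase, was called higher with adult platelets over control (0.26 ± 0.077, adjusted p = 0.0337) and lower with P7 than with adult platelets (-0.36 ± 0.077, adjusted p = 0.00569). The call over control was lost without adult platelet replicate 3 or any control replicate (adjusted p = 0.0536 to 0.115) and with upper-quartile scaling (0.0592). The 5 genes called lower with P7 platelets over control, named after their values were seen, were F5, Lrp1, Vkorc1, Serpinf2 and Pros1, and the 2 called lower with adult platelets were F5 and Ggcx. Serpinf2 was near the floor, with 3 to 6 reads a library with P7 platelets and 13 to 18 in control. The call of Pros1 was lost without P7 platelet replicate 1 or any control replicate (adjusted p = 0.0520 to 0.129), with DESeq2's size factors (0.0506) and in DESeq2 (0.0630), and that of Ggcx without control replicate 3 (0.0599).

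**Figure D4:**
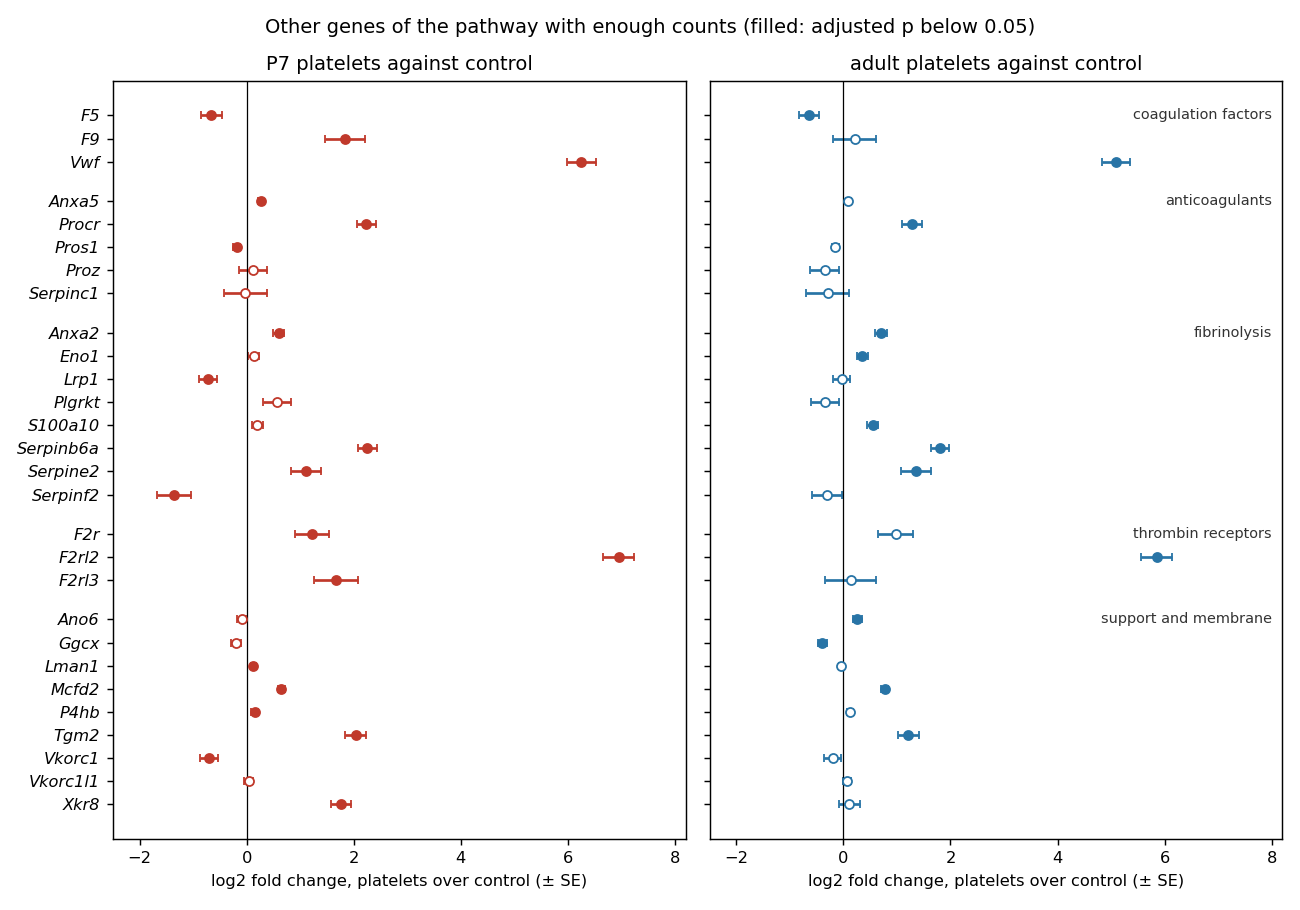
Log2 fold changes ± SE of the tested genes of the wider lists except 1 that is not shown, grouped by role, for P7 platelets over control on the left and adult platelets over control on the right; filled points have an adjusted p below 0.05. Vwf and F2rl2 lie farthest to the right in both panels, at 6.25 and 6.95 with P7 platelets and 5.09 and 5.85 with adult platelets.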

How the data were processed

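The authors deposited raw read counts for each gene symbol in each library, not normalised. Per the labels' protocols, stranded mRNA libraries from 100 ng of RNA were read as 75 nt single ends. Per the submitters' processing notes, fastp 0.20.1, STAR 2.7.6a, Subread 2.0.1, featureCounts and Salmon 1.3.0 were used. The sources used here do not give the roles of these tools, nor the build, annotation or strand mode of the counting.

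Counts of all 9 libraries were fitted with edgeR 4.0.16 (R 4.3.3), with 1 mean per group, TMM normalisation and filterByExpr (minimum count 10), and tested across all genes by two-sided quasi-likelihood tests with Benjamini-Hochberg adjustment. Intervals for fold changes used the test's degrees of freedom. Read intervals cover counting error only. Alternatives used DESeq2 1.42.0, limma 3.58.1 (voom), other scalings and filters, a replicate block and a term for libraries above 300 CPM of Igkc. Further ones removed the listed platelet and red cell markers with the mitochondrial transcripts, or left out each library in turn. The labels state no pairing, and the main tests used none. Between P7 platelet and control libraries, deviations of same-numbered libraries from their group means correlated at 0.209 to 0.576. The numbers served as pairs only in the replicate block, which was applied to all 9 libraries. Of 55367 symbols, 53365 matched GENCODE M21, which gave positions and exon lengths.

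The members, lists, motifs and tests were chosen with earlier results of these data known. The text names all members, up to 8 called genes per comparison of the wider lists with a mean log2 CPM of at least 0 by smallest p, those called in opposite directions in different comparisons, and the 3 genes nearest in pattern. 1 gene of the wider lists is included in their counts and medians and is not reported here by itself.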

Additional observations from a re-analysis of the deposited data

Results flagged for a closer look

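The effects of P7 and adult platelets, each against the same control libraries, differed for 3 of the 8 tested members by the test of the difference itself (edgeR's quasi-likelihood test). That test is the comparison of P7 over adult platelets given above, where 19.7% of all tested genes were called higher and 19.8% lower. Among the 8 members these shares were 25% and 12.5%, so the count of 3 does not set the members apart from all tested genes. The effect of P7 platelets minus that of adult platelets was -0.78 on the log2 scale for Thbd (adjusted p = 0.00337), which was lower in 3 of 3 P7 platelet libraries than in any adult platelet library. It was 2.78 for Serpinb2 (adjusted p = 0.000455) and 0.27 for F10 (adjusted p = 0.0193), both higher in 3 of 3 P7 platelet libraries. The P7 platelet libraries also held more red cell RNA, at 4.37 to 5.52% of counts against 0.0498 to 0.180% with adult platelets, and its part in these differences was not tested. With the listed platelet and red cell markers and the mitochondrial transcripts removed before scaling, the differences were -0.78, 2.78 and 0.27. Reads that platelets or red cells add to Thbd, Serpinb2 or F10 stay in that fit. It therefore cannot show the part of such RNA in these differences.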

How the results depend on the processing

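Of 1398 values under an alternative, of the members in all comparisons, the genes of the wider lists where they were called and Xkr8 with adult platelets over control, 1291 kept their direction and their side of the threshold, 93 lost and 7 gained a call, and 7 changed sign, none of them called. F7 with P7 platelets over control ran from -0.025 to 0.25 over the fits that left out 1 library, F13a1 and Xkr8 with adult platelets over control from -0.043 to 0.14 and from -0.11 to 0.22, and Plau and Plaur with P7 over adult platelets from -0.21 to 0.11 and from -0.16 to 0.086. Plau was at 0.0066 in that comparison with the Igkc term. The number of members called ran from 4 to 7, from 3 to 4 and from 2 to 4 over all alternatives for P7 platelets over control, adult platelets over control and P7 over adult platelets, against 6, 4 and 3. The number of called genes of the wider lists, for which the alternatives were added after the data were seen, ran from 16 to 23, 10 to 15 and 10 to 17. Calls among all tested genes moved between alternatives as well, as given above for upper-quartile scaling. With the replicate block the numbers of called members were 7, 4 and 3. Of all 13707 tested genes that fit called 4336 higher and 4229 lower for P7 platelets over control. For adult platelets over control it called 2247 higher and 1981 lower, and for P7 over adult platelets 3022 higher and 2943 lower. Deviations of same-numbered libraries correlated at -0.077 to 0.557 between adult platelets and control and at -0.081 to 0.486 between P7 and adult platelets. In both, replicate 1 correlated best with its own number (0.557 and 0.486), and replicate 3 did not (-0.077 and -0.081). Between P7 platelets and control every P7 platelet library correlated best with its own number. Whether libraries of the same number share material is not given in the labels and was not tested. With adult platelets over control the block brought in F7 (adjusted p = 0.0478) and ended the call of Plau (adjusted p = 0.0602). F13a1 with P7 over adult platelets passed the test without adult platelet replicate 1 (0.29, adjusted p = 0.0367). Depth limits Plau, Tfpi and Serpinb2, with 22 to 185 reads in most libraries, and leaves F3 without a test. The cause of these changes was not tested.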

Other observations

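The values of 3 genes of the wider lists, chosen after they were seen, are given here. F9, the gene of factor IX, had 1.37, 1.09 and 0.867 CPM with P7 platelets, 0.249, 0.572 and 0.237 CPM with adult platelets and 0.225, 0.394 and 0.304 CPM in control, from 8 to 41 reads a library. It was called higher with P7 platelets over control (1.84 ± 0.37, adjusted p = 0.00211, edgeR). Plgrkt, the gene of a plasminogen receptor, had 77.7, 83.8 and 87.8 CPM with P7 platelets, 54.9, 54.5 and 23.0 CPM with adult platelets and 53.6, 57.5 and 56.6 CPM in control. Adult platelet replicate 3 stood apart from the other libraries of its group for that gene. Plgrkt was called higher with P7 than with adult platelets (0.91 ± 0.26, adjusted p = 0.0208, edgeR), and the call was lost without P7 platelet replicate 2 or 3 (adjusted p = 0.0568 and 0.0637) and with only those groups in the fit (0.0503). Without adult platelet replicate 3 the log2 fold change of Plgrkt was 0.60. Vkorc1, the vitamin K epoxide reductase gene, had 1.61, 1.89 and 1.80 CPM with P7 platelets, 2.74, 2.06 and 2.73 CPM with adult platelets and 2.75, 2.68 and 3.19 CPM in control (-0.70 ± 0.16 for P7 platelets over control, adjusted p = 0.00479, edgeR).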
